A study of Mus musculus with 4 samples.

Results

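A set of 10 interferon-stimulated effector genes was followed in mouse cardiac fibroblasts undergoing direct reprogramming. They were chosen by name, with earlier results of these data known, from the 16383 genes of the deposited count table. The genes were Isg15, Mx1, Mx2, Rsad2, Cmpk2, Ifi44, Ifi27, Xaf1, Parp14 and Rtp4. All 10 were in the table, and all 10 passed the filter on low counts. They encode single effectors outside the large Ifit, Oas, Gbp and Ifi200 families. The cells were primary, wild-type cardiac fibroblasts from animals 3 months old, and every library carried MGT, the cardiac transcription factors Mef2c, Gata4 and Tbx5 that drive reprogramming. One group also received a short hairpin against the nuclear receptor gene Nr4a3 (MGT+shNr4a3, 2 libraries) and the other a non-targeting hairpin (MGT+shNT, 2 libraries). Both were collected at reprogramming day 7, to ask which transcripts differ when knockdown of Nr4a3 promotes reprogramming. The labels name neither the mouse strain nor separate cultures or animals for the libraries of a group, so a p-value here reflects only how far these libraries spread, which may be technical.

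Type I interferons bind the receptor pair Ifnar1 and Ifnar2 on the cell surface and activate the kinases Jak1 and Tyk2. These phosphorylate Stat proteins such as Stat2, which joins Irf9 in the ISGF3 complex to bind interferon-stimulated response elements (ISRE) near the start of target genes. The products of these targets modify proteins, trap viral particles, alter nucleotide pools or favour cell death, and fibroblasts are a classical source and target of interferon beta.

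RefSeq promoter windows (build GRCm38.p6, the same assembly as mm10, from 250 bases before to 50 bases after the start) matched 5 of the 10 genes, Isg15, Rsad2, Cmpk2, Ifi44 and Xaf1. The ISRE core was searched on both strands as GAAA, any 2 bases and GAAA, and matches may overlap. It was present in 3.44% of the 32851 windows of the table and in the windows of Isg15 and Rsad2. In the sequences below, which run 5′ to 3′ over the 150 bases before the RefSeq start, capitals mark the fixed letters of each match. Isg15 is shown for its matches, Rsad2 and Cmpk2 because they lie head to head, and Xaf1 because its counts did not pass the test given below.
Isg15, chr4:156200819-156200968, minus strand: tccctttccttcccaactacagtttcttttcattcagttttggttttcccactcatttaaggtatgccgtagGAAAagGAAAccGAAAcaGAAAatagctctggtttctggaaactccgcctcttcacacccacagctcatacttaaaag
Rsad2, chr12:26456453-26456602, minus strand: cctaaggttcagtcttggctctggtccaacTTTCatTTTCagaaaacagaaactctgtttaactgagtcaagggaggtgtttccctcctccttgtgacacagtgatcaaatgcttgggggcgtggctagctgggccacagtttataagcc
Cmpk2, chr12:26469065-26469214, plus strand: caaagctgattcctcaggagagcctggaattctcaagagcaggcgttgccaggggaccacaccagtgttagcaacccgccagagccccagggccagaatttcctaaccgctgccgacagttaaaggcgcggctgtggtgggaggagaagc
Xaf1, chr11:72301479-72301628, plus strand: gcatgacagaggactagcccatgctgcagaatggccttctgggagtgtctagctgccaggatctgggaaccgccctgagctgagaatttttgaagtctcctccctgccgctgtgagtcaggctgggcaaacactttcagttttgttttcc
The Isg15 window held 3 overlapping matches, whose first bases lay at positions -78, -72 and -66 from the start. Rsad2 held 1 match at position -120, on the strand opposite to the gene. The windows of Cmpk2, Ifi44 and Xaf1 held no run of these letters. The gamma-activated site, searched as TTC and GAA separated by any 3 bases, and the Nr4a response element, searched as AGGTCA directly preceded by AA, on both strands, were in none of the 5 windows, against 8.30% and 1.51% of all windows.

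Total counts over the listed genes were 28220440 to 30976450 per library, and 1 count corresponded to 0.0326 to 0.0350 CPM, the count scaled to a common library size after normalisation. The targeted gene, Nr4a3, was counted 356 and 353 times with shNT, and 18 and 32 times with shNr4a3. The fibroblast label was checked against 9 measured marker genes, whose summed level was 7712 to 8013 CPM in shNT and 10164 to 10574 CPM in shNr4a3. Of these, 6 fell, among them Tcf21 and Pdgfra (log2 fold changes -3.35 and -2.26), 2 did not pass and 1, Postn, rose by 3.53. Without Postn the sum ran the other way, at 7325 and 7543 CPM in shNT and 5556 and 5301 CPM in shNr4a3. Differences between the hairpins were tested with edgeR's quasi-likelihood test, with Benjamini-Hochberg adjustment over all 10736 genes tested and a threshold of 0.05.

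Of the 10 effector genes, 8 were lower in the shNr4a3 libraries, 1 was higher (Ifi27) and 1 did not pass the test (Xaf1). Over all genes tested, 29.4% were called lower, 30.7% higher and 60.2% either way. The 10 genes and the other gene lists were chosen with earlier results of these data known. Their counts beside these shares are therefore a description and not an independent test. The median log2 fold change of the 10 genes was -2.08, beside 0.02 for all genes tested. No overlap in CPM between the hairpins was seen for 9 of the 10 genes (81.0% of all genes tested), and for 8 of them shNr4a3 was below (39.9% of all genes tested). In bulk RNA, fewer cells of a type and less RNA per cell cannot be told apart.

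**Figure D1:**
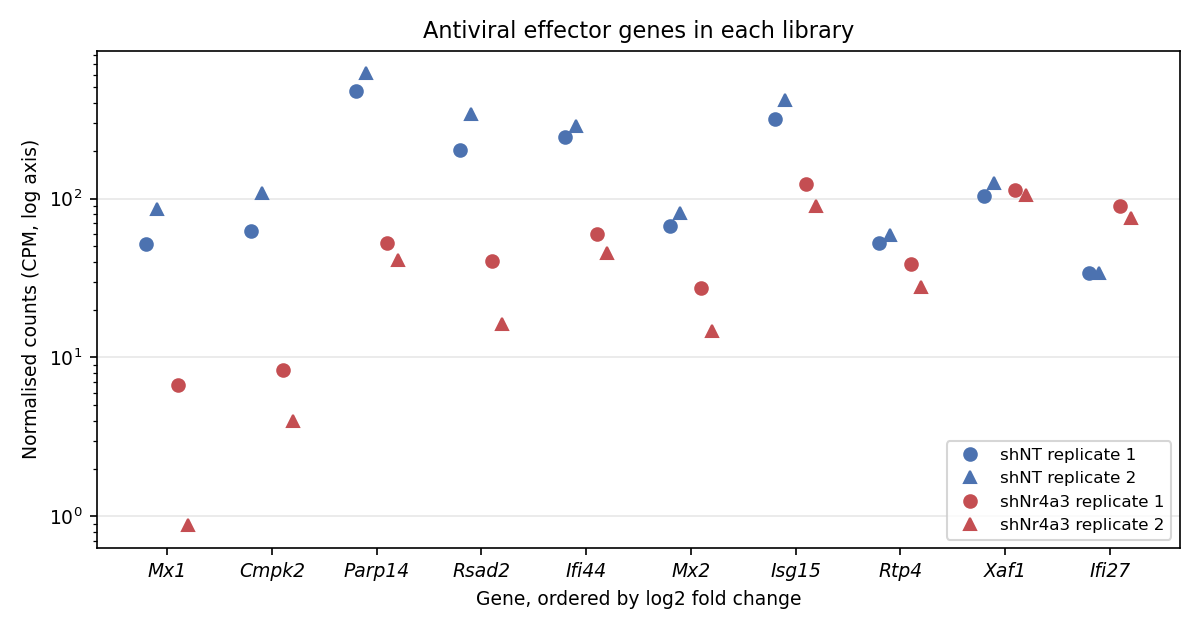
Normalised counts (CPM, log axis) of the 10 effector genes in each of the 4 libraries, blue for shNT and red for shNr4a3, circles for replicate 1 and triangles for replicate 2. In 8 genes both red points are below both blue points, the points of Xaf1 overlap, and those of Ifi27 are reversed.

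**Figure D2:**
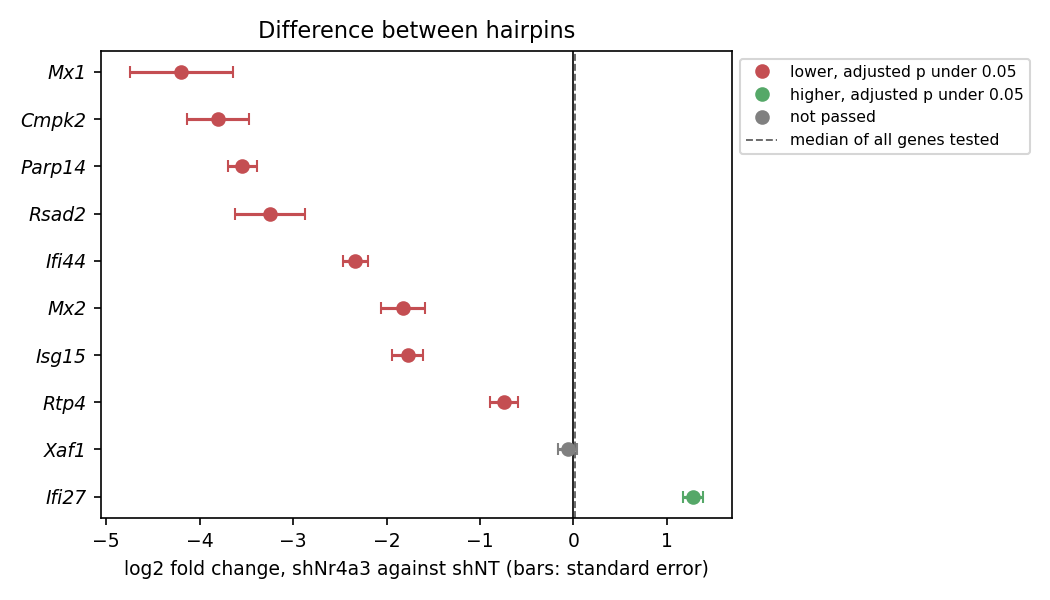
Log2 fold change of each effector gene, shNr4a3 against shNT, with bars for the standard error and a dashed line at the median of all genes tested. The values run from -4.20 for Mx1 to 1.28 for Ifi27.

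Isg15 encodes a ubiquitin-like protein that is attached to other proteins during an interferon response. Isg15 spans positions 156199424 to 156200818 of chromosome 4 (mm10, minus strand). Its level was 316 and 416 CPM in the shNT libraries and 124 and 90.0 CPM in the shNr4a3 libraries. Both shNr4a3 values were well below both shNT values, and the lowest shNT library exceeded the highest shNr4a3 library 2.55-fold. The log2 fold change by edgeR was -1.77 with SE 0.165 (adjusted p = 1.68e-05). Of 4 measured genes of the conjugation pathway, 3 fell with it. Ube2l6, the conjugating enzyme, went from 279 ± 29.4 to 52.1 ± 7.52 CPM (mean ± SD, n = 2 each). Herc6, the main ISG15 ligase of the mouse, and Trim25, an ISG15 ligase and activator of RNA sensing, fell by 2.17 and 1.75 on the log2 scale. Ube2e2, a ubiquitin-conjugating enzyme, rose by 0.62.

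Mx1 and Mx2 encode dynamin-like GTPases that block viral replication, in the mouse the former in the nucleus and the latter in the cytoplasm. In many laboratory strains both genes carry inactivating mutations, and the annotation classes Mx2 as a polymorphic pseudogene. They are neighbours on chromosome 16, at 97447035 to 97462907 (minus strand) and 97535308 to 97560900 (plus strand). Mx1 reads numbered 1485 and 2636 with shNT, then 202 and 27 with shNr4a3. In CPM these were 52.0 and 86.2 against 6.69 and 0.879. Both knockdown libraries were far below the controls, but they differed from each other 7.61-fold, the widest gap between libraries of a group among the 10 genes. The log2 fold change by edgeR was -4.20 with SE 0.553 (adjusted p = 1.61e-04), and it was -6.29 without shNr4a3 replicate 1 and -3.38 without shNr4a3 replicate 2. Mx2 stood at 67.2 and 81.0 CPM in shNT and at 27.2 and 14.6 CPM in shNr4a3. Its groups were separate as well, with a smaller change (edgeR log2 fold change -1.83 with SE 0.235, adjusted p = 1.38e-04). Per length, the level of Mx1 divided by that of Mx2 was 0.767 and 1.06 in the shNT libraries and 0.244 and 0.0597 in the shNr4a3 libraries. The pair were thus near equal in the controls, and in both knockdown libraries Mx2 was the more abundant. Reads can be exchanged between these paralogues where their sequences match.

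Rsad2 encodes viperin, a radical SAM enzyme that converts CTP into a chain-terminating nucleotide analogue, and Cmpk2 encodes a mitochondrial nucleoside monophosphate kinase. They lie next to each other on chromosome 12, Rsad2 at 26442746 to 26456452 on the minus strand and Cmpk2 at 26469204 to 26479837 on the plus strand, 12.8 kb apart. Rsad2 was at 203 and 338 CPM in shNT and at 40.7 and 16.3 CPM in shNr4a3. Cmpk2 was at 62.4 and 108 CPM in shNT and at 8.28 and 4.01 CPM in shNr4a3. For both genes replicate 2 was the higher control and the lower knockdown library, and the groups did not overlap. The log2 fold changes were -3.25 (SE 0.373, edgeR adjusted p = 6.64e-05) for Rsad2 and -3.80 (SE 0.331, edgeR adjusted p = 1.10e-05) for Cmpk2. Without shNr4a3 replicate 1 they were -4.05 and -4.41. Cmpk2 per length was 0.416 and 0.433 of Rsad2 in shNT, and 0.276 and 0.332 in shNr4a3, so the ratio varied much less than either gene. Rnf144a, the neighbour on the other side of Rsad2, did not pass (93 and 124 reads with shNT, 154 and 146 with shNr4a3, edgeR adjusted p = 0.144).

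Parp14 encodes a mono-ADP-ribosyltransferase of the macrodomain class, and lies on chromosome 16 at 35832874 to 35871544 (minus strand). It had the highest CPM of the 10 genes in shNT, with 475 and 614 CPM, against 52.2 and 41.3 CPM in shNr4a3. Its lowest shNT library exceeded its highest shNr4a3 library 9.10-fold, the widest separation among the 10 genes. The log2 fold change by edgeR was -3.54 with SE 0.152 (adjusted p = 1.69e-07). Across 10 other measured genes of the PARP family list, 5 fell, 4 rose and 1 did not pass. Of all genes tested, 29.4% fell and 30.7% rose. The PARP list genes that fell were Dtx3l (log2 fold change -1.63), which encodes the ubiquitin ligase partner of Parp9, and Parp12, Parp4, Parp10 and Parp9 (-0.99, -0.87, -0.85 and -0.75). Those of the list that rose were Tiparp, an aryl hydrocarbon receptor target (1.03), Parp8 (0.62), the tankyrase gene Tnks2 (0.56) and Parp1, the DNA-damage sensor (0.36). The call of Parp1 was lost without shNT replicate 1 (edgeR adjusted p = 0.0704). Parp2 had a log2 fold change of 0.06 (edgeR adjusted p = 0.665). Without genes whose exons overlap another gene, which drops Dtx3l, Parp9 and Parp10, 2 PARP genes fell.

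Ifi44, an interferon-induced protein gene on chromosome 3 at 151730922 to 151749960 (minus strand), was at 243 and 288 CPM in shNT and at 59.5 and 45.7 CPM in shNr4a3. The groups lay far apart (edgeR log2 fold change -2.34 with SE 0.135, adjusted p = 9.32e-07). The libraries of a group differed 1.19-fold in shNT and 1.30-fold in shNr4a3. Rtp4 encodes a chaperone that helps olfactory, taste and opioid receptors reach the cell surface, and its annotated locus spans chromosome 16 from 23520291 to 23614222 (plus strand). Its level was 52.6 and 58.8 CPM in shNT and 38.7 and 27.8 CPM in shNr4a3. The groups were separate by a narrow margin, 1.36-fold between the nearest libraries, and the fall was the smallest of the 8 (edgeR log2 fold change -0.74 with SE 0.148, adjusted p = 0.00195). Of the paralogues, Rtp1 had 0 counts in 3 libraries and 2 counts in shNr4a3 replicate 2, and Rtp2 had 0 counts in all 4.

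Ifi27 and Xaf1 departed from the rest. Ifi27 encodes a small hydrophobic mitochondrial protein of the ISG12 family and lies on chromosome 12 at 103434211 to 103440239 (plus strand). It was at 34.0 CPM in both shNT libraries and at 90.2 and 75.4 CPM in the shNr4a3 libraries. Both knockdown libraries were above both controls, with 2.21-fold between the nearest libraries (edgeR log2 fold change 1.28 with SE 0.107, adjusted p = 8.44e-06). The adjacent paralogue Ifi27l2a, 1.93 kb away on the opposite strand, went the other way, with 357 counts in each shNT library and 181 and 160 in shNr4a3 (edgeR log2 fold change -1.11 with SE 0.165, adjusted p = 3.45e-04). Per length, Ifi27 was 0.859 and 0.918 of Ifi27l2a in the shNT libraries, and 4.75 and 4.56 times Ifi27l2a in the shNr4a3 libraries. Ifi27l2b, the other measured relative, had a change of -0.10 on the log2 scale (edgeR SE 0.159, adjusted p = 0.594). Reads that match more than 1 of these relatives could have been assigned to either.

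Xaf1 encodes an antagonist of the caspase inhibitor XIAP and lies on chromosome 11 at 72301629 to 72313733 (plus strand). It was at 104 and 125 CPM in shNT and at 113 and 106 CPM in shNr4a3, and both knockdown libraries lay between the controls. The log2 fold change by edgeR was -0.06 with SE 0.101 (adjusted p = 0.617), and its sign changed without shNT replicate 2.

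The order of the genes by level per length (RPKM, CPM per kilobase of exon) differed between the hairpins. Isg15 was highest in both groups, at 484 ± 93.7 RPKM in shNT and 141 ± 31.7 RPKM in shNr4a3. In shNT it was followed by Rsad2 (62.6 ± 22.1), Parp14 (58.5 ± 10.5) and Ifi44 (43.3 ± 5.22), all RPKM. The other 6 genes lay between 19.0 and 26.7 RPKM, from Mx1 to Cmpk2. In shNT the libraries of Rsad2 and Parp14 overlapped, so the order of that pair does not exceed the spread between libraries. Ifi44 lay below both and above the other 6 genes with no overlap, although its higher library and the lower Rsad2 library were both at 47.0 RPKM. Cmpk2 overlapped each of the 5 genes below it, while Rtp4 lay above Ifi27, Mx2 and Mx1 with no overlap. Under shNr4a3, Ifi27 came second at 56.4 ± 7.16 RPKM, ahead of Xaf1 (23.3 ± 1.12) and Rtp4 (15.6 ± 3.59). Ifi44, Rsad2, Mx2 and Parp14 followed between 5.03 and 8.58 RPKM, with Rsad2 overlapping the 3 others. Cmpk2 (1.92 ± 0.945) and Mx1 (1.04 ± 1.13) were lowest and overlapped.

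**Figure D3:**
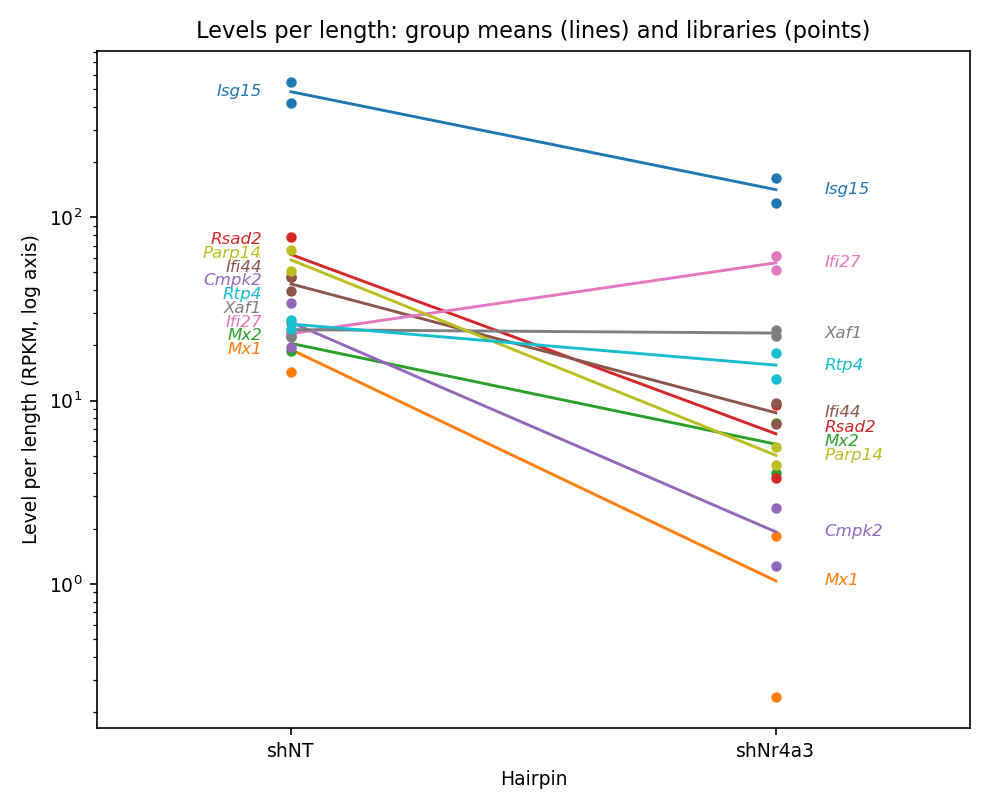
Level per length (RPKM, log axis) of the 10 effector genes in each hairpin group, with points for libraries and lines joining group means. Isg15 is highest in both groups. By group mean, Ifi27 moves from rank 8 to rank 2 and Mx1 is lowest in both. In shNT the libraries of Ifi27 lie within the ranges of Xaf1 and of Mx1, and those of Mx2 within the range of Mx1. The lowest place of Mx1 in shNT therefore does not exceed the spread between libraries.

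The libraries within a group also differed in a shared direction. In shNT, 9 of the 10 genes were higher in replicate 2 than in replicate 1, where 49.8% of all genes tested were. In shNr4a3, all 10 were higher in replicate 1 than in replicate 2, where 50.4% of all genes tested were. The median ratio of the higher to the lower library was 1.25 in shNT and 1.38 in shNr4a3 for the 10 genes, beside 1.09 and 1.12 for all genes tested. The genes with the widest spread, Mx1, Rsad2 and Cmpk2, are also 3 of the 4 with the largest falls. The exception in shNT was Ifi27, at 34.0 CPM in both libraries. Among 29 other antiviral effectors tested, 27 were higher in shNT replicate 2 and 20 in shNr4a3 replicate 1. The summed level of the 10 genes was 1609 and 2149 CPM in the shNT libraries and 560 and 422 CPM in the shNr4a3 libraries. Between the hairpins the smallest gap, from the lower control to the higher knockdown library, was thus wider than the gap within either group.

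**Figure D4:**
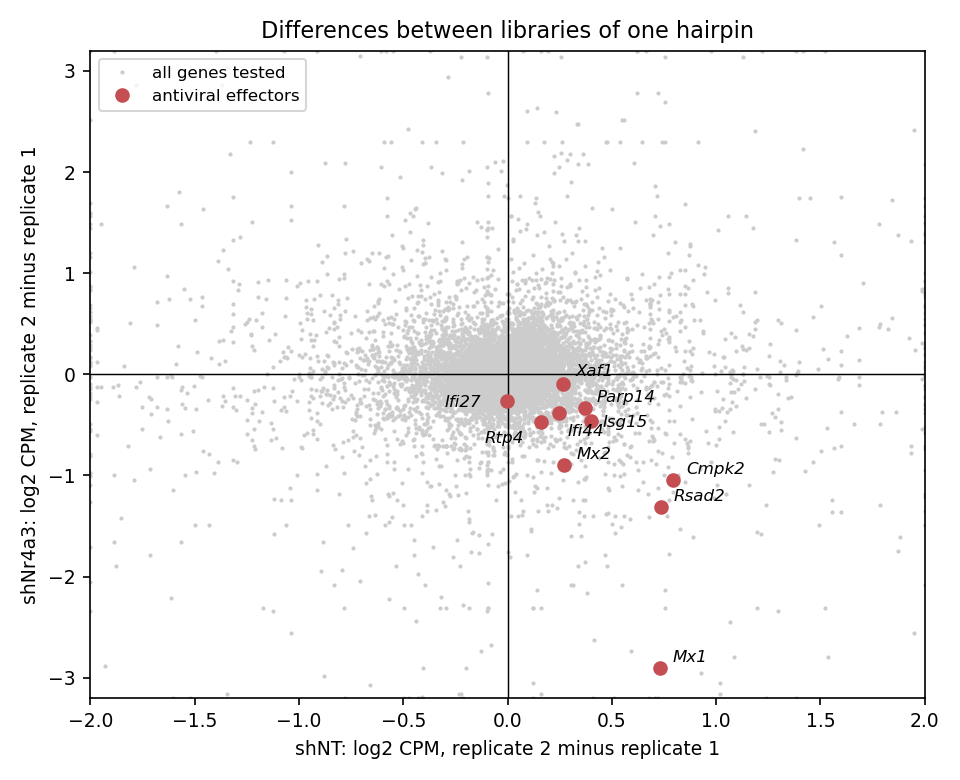
Difference in log2 CPM between replicate 2 and replicate 1, shNT on the horizontal and shNr4a3 on the vertical axis, for the 10 effector genes (red) and all genes tested (grey; points beyond the axes are drawn at the edges). All 10 effector genes lie below 0 and 9 lie right of 0, with Mx1 at -2.90 in shNr4a3.

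Upstream of these effectors, transcripts of the interferon pathway were mostly lower as well. Reads of the interferon beta gene Ifnb1 numbered 14 and 12 with shNT and 0 with shNr4a3 in each library (edgeR adjusted p = 0.00469). Against a floor of 3 counts over the group it was at least 8.93-fold lower, and it had too few counts to be tested without either shNT library. Of 19 interferon genes measured, 14, the 13 alpha genes and Ifnab, had 0 counts in every library. Of 10 tested receptor and Jak-Stat genes, 8 were lower, 1 was higher and 1 did not pass, where 29.4% of all genes tested were lower. Ifnar1, a chain of the type I receptor, went from 62.8 ± 3.08 to 24.3 ± 0.895 CPM. Stat2 went from 168 ± 31.3 to 71.4 ± 3.2 CPM (log2 fold change -1.24). Irf9, which completes ISGF3, fell by 0.73, and Stat3, a mediator of interleukin-6 signals, fell by 1.64 on the log2 scale. For the interferon gamma receptor, Ifngr2 rose by 0.89 and Ifngr1 had a log2 fold change of -0.21 (edgeR adjusted p = 0.0691). Without genes whose exons overlap another gene, which drops Ifnar2, Jak1, Irf9 and Stat3, 4 genes of the list fell. Irf9, Ifngr1 and Ifngr2 were chosen for mention after their values were seen.

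Of the interferon regulatory factors, Irf1, an early target of both interferon types, fell by 1.21 on the log2 scale, and Irf5 did not pass (log2 fold change -0.17, edgeR adjusted p = 0.195). Irf4, with 8 counts in each shNT library and 2 and 0 in the shNr4a3 libraries, was too low to test. Exons of Irf1 and Irf5 overlap genes on the opposite strand (Gm17334 and Tnpo3), so some reads may belong to those genes. Feedback inhibitors of the pathway went both ways, with 3 of 6 rising and 2 falling, beside 30.7% and 29.4% of all genes tested. Trim24, a transcriptional cofactor that restrains interferon signalling, rose from 26.8 ± 1.62 to 119 ± 0.26 CPM, and Sh2b3 and the phosphatase gene Ptpn11 rose by 0.60 and 0.40. Socs3, an inhibitor of Jak kinases, fell by 1.44 and Ptpn2, a phosphatase of the pathway, by 0.51. The call of Sh2b3 was lost without shNT replicate 2 (edgeR adjusted p = 0.0602). Socs1 had a change of -0.86 on the log2 scale (edgeR SE 0.438, adjusted p = 0.118).

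Nucleic acid sensors and other effectors largely fell alongside the 10 genes. Of 8 sensor genes tested, 7 fell, with log2 fold changes of -4.26 for Zbp1, which binds Z-form nucleic acids, -2.03 for the RNA helicase gene Dhx58, -1.49 for Eif2ak2, the RNA-activated kinase PKR, and -1.37 for Tmem173, which encodes the DNA-pathway adaptor STING. Mavs, the mitochondrial adaptor of RNA sensing, rose by 0.58. In the list of 29 other antiviral effectors, 26 were lower, 1 was higher and 2 did not pass, with a median of -1.09 on the log2 scale. The share called lower over all genes tested was 29.4%. Both lists were chosen with earlier results of these data known, so their counts are a description only. Gm4951, a GTPase-like gene, went from 51.9 ± 12.2 to 3.42 ± 1.11 CPM. Trim14, an adaptor of antiviral signalling, fell by 3.17 on the log2 scale. The Schlafen gene Slfn9 had a log2 fold change of -2.45. Ch25h, whose enzyme makes an antiviral oxysterol, fell by 2.26. Rnf213, the most abundant of this list in shNT, fell by 1.24. Samhd1, a dNTP hydrolase that limits retroviruses, rose by 0.33, a call lost without shNT replicate 1 (edgeR adjusted p = 0.161). Mov10 and Slfn2 did not pass, with log2 fold changes of -0.02 and -0.12. Mavs, Samhd1, Mov10 and Slfn2 were chosen for mention after their values were seen.

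**Figure D5:**
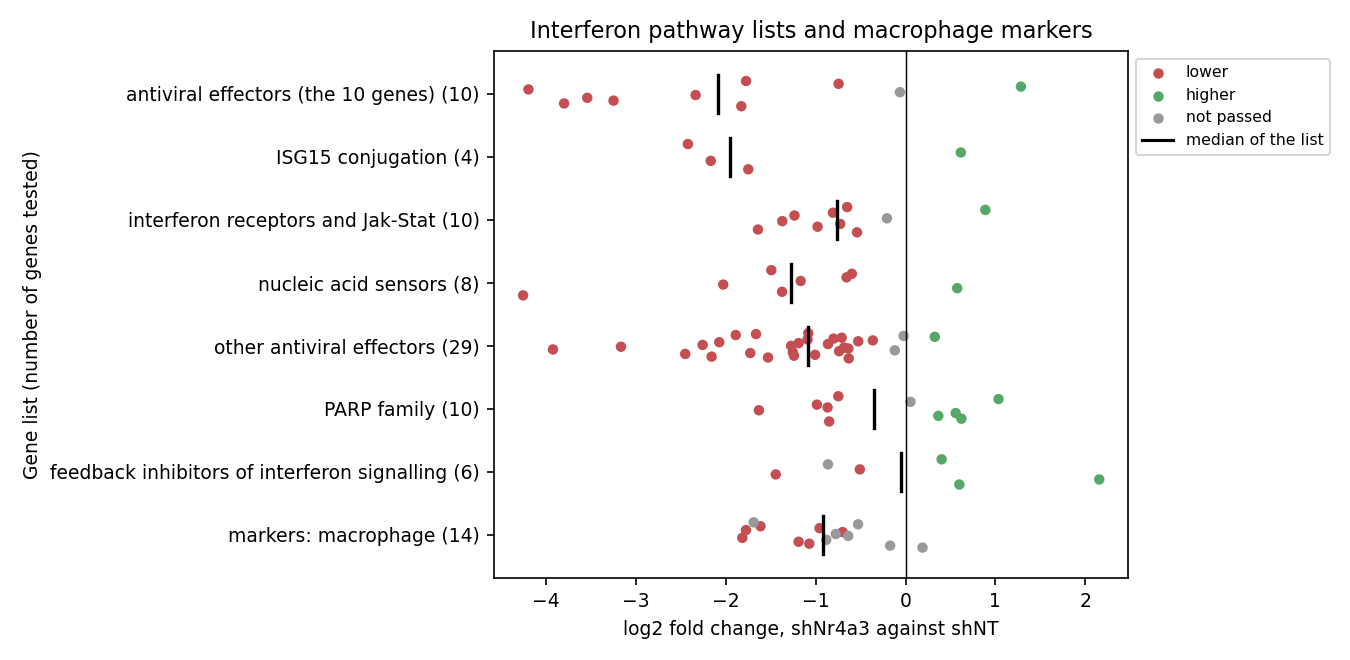
Log2 fold change, shNr4a3 against shNT, of each tested gene of the interferon pathway lists and of the macrophage markers, coloured by the edgeR call, with a bar at the median of each list. Most genes of the sensor and effector lists lie left of 0, with medians of -1.27 and -1.09, while the feedback inhibitors lie on both sides.

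Genes next to the effectors on the chromosome did not move as the effectors did in every case. Of 14 other tested genes that were nearest on either side within 100 kb, 8 fell, 3 rose and 3 did not pass. Of all genes tested, 29.4% were called lower and 30.7% higher. Beside Isg15, the agrin gene Agrn, 1.94 kb away, went from 274 ± 28 to 65.2 ± 0.943 CPM (edgeR log2 fold change -2.07 with SE 0.093, adjusted p = 2.12e-07). AW011738, on its other side, fell by 2.64, and by 3.24 without shNr4a3 replicate 2. Beside Mx1, Bace2 fell by 0.59, and beside Mx2, Tmprss2 did not pass (16 to 21 counts per library). Beside Ifi44, the prostaglandin F receptor gene Ptgfr rose by 1.57. Masp1, a complement lectin-pathway protease gene, overlaps the start of the annotated Rtp4 locus on the opposite strand, and rose from 143 and 165 counts to 1574 and 1703 counts (log2 fold change 3.37). Xaf1 was flanked by Slc13a5, which rose from 24 and 8 counts to 103 and 176 (log2 fold change 3.06, and 4.09 and 2.44 without shNT replicate 1 and 2), and by Fbxo39, which fell from 10 and 32 counts to 3 and 0, a call lost without shNr4a3 replicate 2 (edgeR adjusted p = 0.0702).

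The genes most like the effectors were those whose log2 CPM, centred on their own mean, lay closest to the median profile of the 10 genes over the 4 libraries. They were H2-Q4, Slc4a11, Oasl2, Fam111a and Ppp1r26, at Euclidean distances of 0.0614, 0.119, 0.127, 0.165 and 0.184 log2 units. Among the 10 genes themselves, Ifi44 was nearest to that profile (0.238) and Ifi27 farthest (3.44). H2-Q4, a class I histocompatibility gene, had 2095 and 2657 counts in shNT and 636 and 454 in shNr4a3, and can exchange reads with close relatives. Oasl2, an oligoadenylate synthetase-like gene, had 10605 and 12986 counts in shNT and 3203 and 2435 in shNr4a3. Slc4a11 rested on few reads, with 39 and 46 counts against 10 and 6. These genes were selected for their likeness, so their differences are given without a test.

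Markers of other cells that respond to interferon were measured as well. Their counts below stand beside 29.4% called lower and 30.7% called higher over all genes tested. Of 14 tested macrophage markers, 7 were lower, 0 higher and 7 not past the threshold, and none was at 0 in all libraries. The summed level of the list was 328 and 259 CPM in shNT and 213 and 215 CPM in shNr4a3. C1qa, Adgre1, Cd68 and C1qc fell by 1.82, 1.78, 1.61 and 1.19 on the log2 scale, from 2.33 to 21.3 CPM in shNT, while Lyz2, the most abundant at 134 to 169 CPM in shNT, had a log2 fold change of -0.17 (edgeR adjusted p = 0.208). The call of C1qc was lost without shNT replicate 1 (edgeR adjusted p = 0.168) and without either shNr4a3 library (0.0767 and 0.0614). Adgre1 was at -2.49 without shNr4a3 replicate 2. Within shNT none of the 14 was higher in replicate 2, where 9 of the 10 effector genes were, and within shNr4a3 8 of the 14 were higher in replicate 1, where all 10 effector genes were. The summed lymphocyte markers were at most 0.911 CPM in any library, with Ms4a1 at 0. Of the plasmacytoid dendritic cell markers, Ly6d had 2 counts in all and Tcf4, which fibroblasts also express, fell by 0.31, a call lost without either shNT library. Endothelial markers summed to 109 to 127 CPM in shNT and 106 to 113 CPM in shNr4a3. Of the 8 tested, 2 rose (Emcn 3.52-fold and Kdr 1.98-fold), 3 fell and 3 did not pass. Tek was 1.75-fold lower and Cldn5 5.12-fold lower. Cldn5 rested on few reads, with 10 and 72 counts in shNT and 6 and 10 in shNr4a3. Mural cell markers summed to 393 to 450 CPM in shNT and 1370 to 1417 CPM in shNr4a3, where 4 of 5 rose and 1, Pdgfrb, fell. Without Des, which rose 5.43-fold, the sum was 208 and 213 CPM in shNT and 234 and 256 CPM in shNr4a3. Markers of cardiomyocytes, the cell type aimed at, summed to 15142 to 17530 CPM in shNT and 9371 to 10461 CPM in shNr4a3, where 6 of 10 rose, 2 fell and 2 did not pass. Tnnt2 carried the lower sum, at 15314 and 13105 CPM in shNT and 8238 and 7121 CPM in shNr4a3. Without it the list stood at 2217 and 2036 CPM in shNT and 2223 and 2250 CPM in shNr4a3, and Nppa and Actc1 were 27.8-fold and 13.1-fold higher. The part of these cells in the difference between the hairpins was not tested.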

How the data were processed

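RNA-seq libraries from 4 samples, 2 per hairpin, were compared. Stranded paired-end libraries were made after ribosomal depletion, per the labels' protocols, although the molecule label names polyA RNA. Per the submitters' processing notes, Trimmomatic 0.36, SAMtools and featureCounts of Subread 1.5.1 were used with mouse build mm10. No aligner, annotation version or strand option of the counting is stated there. Raw counts per gene were deposited by the authors without normalization, with the summed exon length used for RPKM. The exon fields of the deposited table end at 255 characters, so positions and exon overlaps came from GENCODE M21 (GRCm38), where 16048 genes (98.0%) were found. The table covers 16 chromosomes, 1 to 6 and 10 to 19, and holds no genes of the others, X among them. CPM, the counts of measured genes and the shares over all genes tested are therefore relative to these chromosomes and not genome-wide. Of 39 other antiviral effectors listed, for example, 30 were measured. Of the 10 genes, Parp14 and Rtp4 overlap an exon of another annotated gene (Gm49730 and Gm45338, same strand, neither in the table).

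Counts were tested with edgeR 4.0.16 in R 4.3.3, using TMM factors, a filterByExpr minimum count of 10 (10736 genes kept) and the hairpin as the only term, and the procedure was tested on simulated data. The SE is the log2 fold change divided by the square root of F. The chi-square statistic per degree of freedom between libraries of a group was 10.6 for shNT and 22.1 for shNr4a3, so all libraries were kept as separate samples. Counting error limits genes with few counts. Alternatives were RLE and upper-quartile factors, no filter, DESeq2 1.42.0, limma-voom (limma 3.58.1), a replicate block, no overlapping genes, and each library left out. The members and lists were chosen with earlier results of these data known. All 10 members are named. From each other list, the text names up to 4 genes that passed with the largest change, the most abundant gene in shNT, and every gene of lists with 5 or fewer measured genes. Others were named after their values were seen. Some measured genes of the lists are counted but not reported by name here.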

Additional observations from a re-analysis of the deposited data

How the results depend on the processing

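Across 11 alternatives, the counts of effector genes called lower (8) and higher (1) did not change, and their median log2 fold change lay between -2.44 and -1.87, both from leaving out a library. Of 110 values of the 10 genes, 109 kept direction and call. The exception was Xaf1, which was never called and ranged from -0.21 to 0.075 when each library was left out, above 0 without shNT replicate 2. A lone library left in a group was assumed to vary like the other group. Over all genes, 2534 to 3298 were called lower and 2622 to 3404 higher, the lowest counts without the genes whose exons overlap another gene, where only 8479 genes were tested. The labels give same-numbered libraries a common number only, and do not say whether they share a culture or batch. The correlation of their deviations was 0.0229 over all genes tested, which does not describe the 10 genes by themselves. With a replicate block 3255 genes were called lower and 3404 higher, with 8 and 1 of the effector genes. Of 462 counts over the other lists and the neighbouring genes, 444 stayed within 1.5 times. Of 1031 values of other genes, 1006 kept direction and call, 18 lost the call, 3 gained it and 4 changed sign, the last being Mov10 (-0.13 to 0.079 when each library was left out) and Dnm1l (-0.11 to 0.17), neither of them called. The cause was not tested. Depth limits genes such as Ifnb1, Fbxo39, Lck, Slc4a11, Socs1 and Tmprss2, which rest on fewer than 50 counts per library.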

Other observations

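Relatives and partners of the effector genes outside the interferon pathway were also measured. Of 11 nucleotide kinase and CTP synthesis genes tested, whose products share substrates with Cmpk2 and viperin, 2 rose, 4 fell and 5 did not pass. The shares over all genes tested were 30.7% higher and 29.4% lower. Uck2, a uridine-cytidine kinase, fell from 47.9 ± 3.33 to 14.4 ± 1.15 CPM (edgeR log2 fold change -1.74 with SE 0.113, adjusted p = 1.84e-06), and Ctps, which makes CTP, fell by 0.70. The adenylate kinase genes Ak1 and Ak4 rose by 1.28 and 0.61, the latter call being lost without shNT replicate 1 (edgeR adjusted p = 0.0711). Cmpk1, the cytosolic counterpart of Cmpk2, was counted 2779 and 2725 times with shNT and 2797 and 2659 times with shNr4a3, with a log2 fold change of -0.06 (edgeR adjusted p = 0.593), and was chosen for mention after its values were seen.

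Of 4 dynamin family genes other than Mx1 and Mx2, the neuronal dynamin gene Dnm1 fell by 1.17 and Dnm3 rose by 0.84, a call lost without shNr4a3 replicate 2 (edgeR adjusted p = 0.0692). The mitochondrial fission and fusion genes Dnm1l and Opa1 did not pass, with log2 fold changes of 0.04 and 0.08. Among genes around the Xaf1 and caspase axis, Birc5, which encodes survivin, fell by 0.87 and Diablo, an antagonist of caspase inhibitors, by 0.42. The call of Diablo was lost without shNT replicate 2 (edgeR adjusted p = 0.0508). Casp9 had a log2 fold change of -0.46 (edgeR adjusted p = 0.0606). Lck, a kinase gene of lymphocytes, had 24 and 21 counts in shNT and 2 and 3 in shNr4a3.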
